A study of Mus musculus with 6 samples.

Results

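The 10 genes described here encode the fast isoforms of the muscle contractile apparatus and its calcium buffer: the myosin heavy chains Myh1, Myh2 and Myh4, the myosin light chains Mylpf and Myl1, the troponin subunits Tnni2, Tnnc2 and Tnnt3, the Z-disc protein Actn3, and parvalbumin (Pvalb). They were chosen by symbol, and all 10 were found among the 23997 gene symbols that each library listed. RNAseq had been performed on the gastrocnemius, the large calf muscle, of 3 HrasG12V mice (2276, 2278 and 2279) and 3 wild-type (WT) littermates (2277, 2280 and 2281), all 21 days old, with 1 library per mouse. The comparison asks how an activating Hras allele, used as a model of Costello syndrome, alters transcripts of skeletal muscle. HrasG12V mice were Caggs-Cre+/Hras G12V/+, in which Cre recombinase had replaced expression of 1 WT Hras allele by an allele with a glycine to valine change under its own promoter. WT mice were Caggs-Cre-/Hras flG12V/+, so they carried the same floxed allele without Cre. The Caggs promoter is active in nearly all cell types, so the allele was not limited to muscle fibers, and both breeding lines were kept on a mixed background of SWR/J and 2 other inbred strains. FPKM counts mapped fragments relative to transcript length and to all mapped fragments and holds no bases, so the allele itself was not checked here.

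Adult mouse limb muscle is built of slow fibers (type 1) and fast fibers (types 2A, 2X and 2B), and each type expresses its own isoforms of the same sarcomere proteins. Myosin heavy chain is the motor whose isoform largely sets the speed of shortening, the light chains stiffen and tune its lever arm, and the troponin complex on the thin filament makes contraction depend on calcium. Alpha-actinin-3 anchors thin filaments at the Z-disc of fast fibers, and parvalbumin binds calcium in the cytosol of fast fibers and speeds relaxation. In whole muscle, fewer fast fibers and less of a transcript per fiber cannot be told apart.

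The 3 heavy chain genes lie side by side on chromosome 11 of GRCm38 (GENCODE vM21), all on the plus strand, and share long stretches of coding sequence. Of all stretches of 50 bases, the read length stated in the methods, in the longest coding transcript, 26.7% in Myh1, 26.9% in Myh2 and 18.9% in Myh4 occurred exactly in another gene as well. The longest coding stretch that Myh1 and Myh4 share is 113 bases (Myh1 at chr11:67208853-67208965, Myh4 at chr11:67248446-67248558). It is shown with the closest stretch of Myh2 (chr11:67181035-67181147), in which capitals mark the 3 bases that differ.
Myh1 and Myh4: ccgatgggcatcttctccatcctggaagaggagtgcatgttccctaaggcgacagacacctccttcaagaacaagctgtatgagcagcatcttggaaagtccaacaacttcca
Myh2: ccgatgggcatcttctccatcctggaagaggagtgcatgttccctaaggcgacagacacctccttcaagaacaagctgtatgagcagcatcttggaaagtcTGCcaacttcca
A read of 50 bases from most of this stretch has no single origin among the 3 genes, so their FPKM depends on how such reads were assigned. Among the other members, 23.4% of the stretches of Myl1 occurred also in the pseudogene Mylf-ps, 0.07% of those of Actn3 occurred in Actn2, and none of Mylpf, Tnni2, Tnnc2, Tnnt3 and Pvalb occurred elsewhere in the annotated transcripts.

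RefSeq promoter windows of GRCm38.p6, from 250 bases before to 50 bases after a start, were found for 7 members, with 2 starts for Pvalb. The windows of Myh1, Myh4 and the upstream start of Pvalb are the ones that held a match to the MEF2 motif, the site of the MEF2 family of muscle transcription factors, on either strand. That motif was in 3.19% of the 32851 windows of all genes. The 250 bases before these starts are shown, with capitals for matches on either strand to MEF2, to the TATA box motif TATAAA, and to the E-box CAGCTG, a site of MyoD and its relatives.
Myh1 chr11:67199852-67200101: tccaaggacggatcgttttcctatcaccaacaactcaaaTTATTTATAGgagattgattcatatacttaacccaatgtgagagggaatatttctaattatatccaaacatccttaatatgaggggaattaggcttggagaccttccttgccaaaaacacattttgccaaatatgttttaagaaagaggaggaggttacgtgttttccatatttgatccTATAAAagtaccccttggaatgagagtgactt
Myh4 chr11:67237562-67237811: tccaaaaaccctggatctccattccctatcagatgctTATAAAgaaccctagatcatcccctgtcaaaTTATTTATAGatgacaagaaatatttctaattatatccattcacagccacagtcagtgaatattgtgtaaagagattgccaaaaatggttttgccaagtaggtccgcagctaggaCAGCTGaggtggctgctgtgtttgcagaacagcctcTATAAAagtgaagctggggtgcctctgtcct
Pvalb chr15:78206401-78206650, minus strand: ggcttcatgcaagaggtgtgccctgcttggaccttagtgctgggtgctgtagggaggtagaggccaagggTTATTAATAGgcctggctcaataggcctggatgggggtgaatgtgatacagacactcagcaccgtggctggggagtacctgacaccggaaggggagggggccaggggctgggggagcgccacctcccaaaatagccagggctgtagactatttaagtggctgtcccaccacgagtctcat
In Myh1 and Myh4 the MEF2 match overlaps a TATAAA match on the opposite strand, and a further TATAAA lies at -32 and -31 from the start. Over all 300 bases, TATAAA was present in the windows of Myh1, Myh2, Myh4 and Myl1 and in 13.6% of all windows. CAGCTG was present in those of Myh4, Mylpf and Myl1 and in 16.3% of all windows.

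Values below are FPKM as the authors scaled them, given in the order of WT mice 2277, 2280 and 2281 and then HrasG12V mice 2276, 2278 and 2279. Of the 10 members, 7 had a value above 0 in every mouse and were compared between genotypes with limma on log2(FPKM + 0.1), a scale on which a difference of 1 is a doubling. None of the 7 passed an unadjusted p of 0.05, against 10.2% of the 13359 genes tested, and none passed an adjusted p of 0.05, against 0.0599% of all genes. In none of the 7 were the values of the genotypes apart, while 18.5% of all genes had groups that did not overlap. The log2 fold changes of the 7 (HrasG12V minus WT) ran from -0.24 to 0.29 with a median of -0.03, and the median of all genes tested was -0.03. The other 3 members, Myh1, Myh4 and Tnnt3, were listed at 0 in at least 1 mouse. A value of exactly 0 for a gene that muscle expresses abundantly can be a failed estimate, although the files marked every value, these included, as OK.

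**Figure D1:**
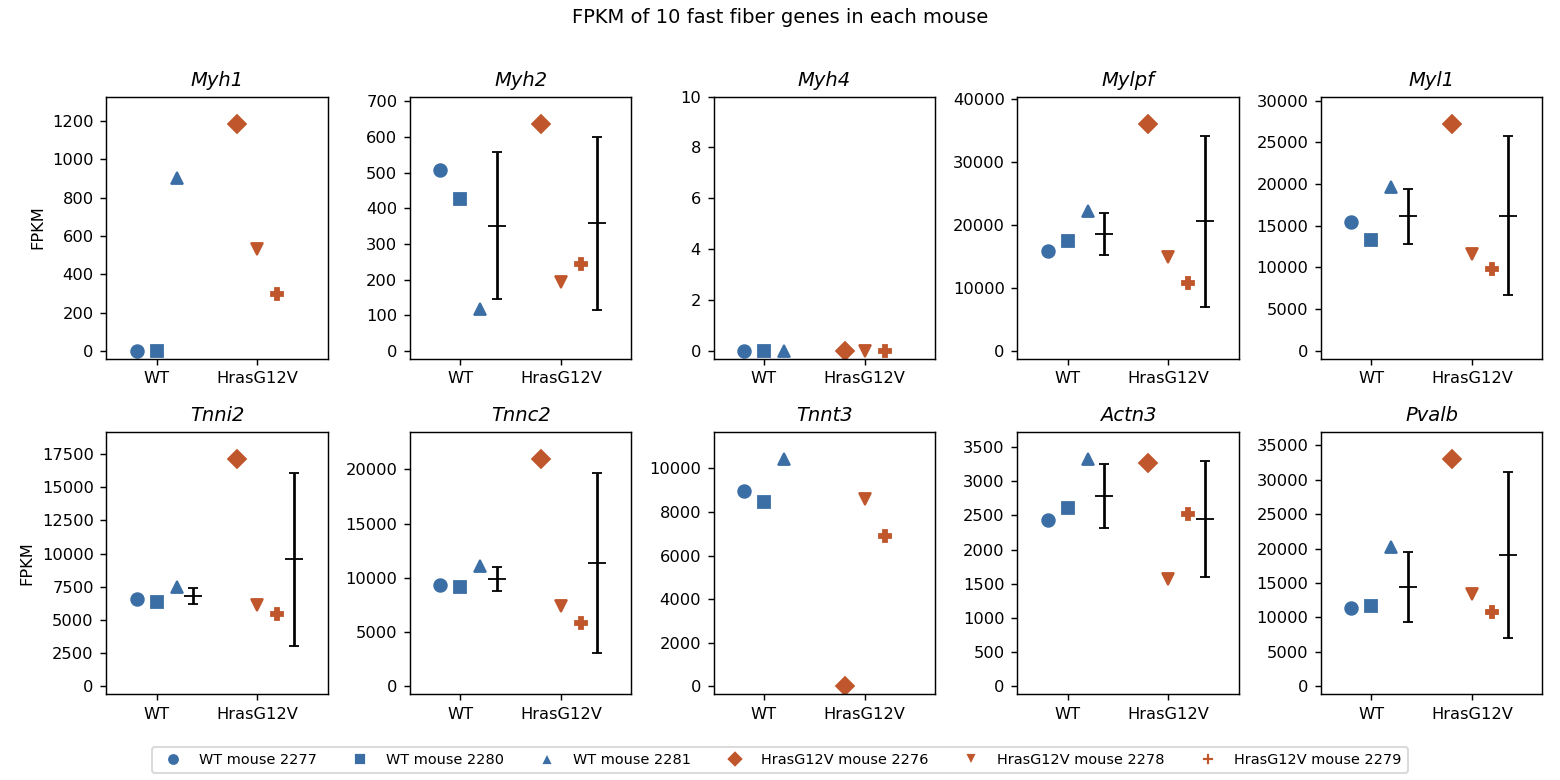
FPKM (vertical axes, each from 0) of the 10 fast fiber genes in 3 WT and 3 HrasG12V mice, 1 point per mouse, with the mean and SD (n = 3) in black for the 7 genes that have a value in every mouse. Mouse 2276 has the highest value of 6 of these 7 genes, Tnnt3 is at 0 only in that mouse, Myh1 is at 0 in WT mice 2277 and 2280, and Myh4 is at 0 in all 6.

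Myh2 (chr11:67171027-67197517, a transcript of 6083 bases) encodes the heavy chain of type 2A fibers, the oxidative fast fibers. Its FPKM was 508, 425 and 117 in WT mice and 636, 193 and 243 in HrasG12V mice. The lowest value belonged to a WT mouse and the highest to an HrasG12V mouse, and the groups overlapped fully. The means were 350 ± 206 and 357 ± 243 FPKM (SD, n = 3). The log2 fold change of Myh2 was 0.08 with a 95% interval of -1.59 to 1.75, so changes of 3-fold in either direction were within it (limma, adjusted p = 0.985).

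Myh1 (chr11:67200052-67224575, 6081 bases) encodes the heavy chain of type 2X fibers. It was listed at 0 in WT mice 2277 and 2280 and at 903 FPKM in WT mouse 2281. In HrasG12V mice it was listed at 1185, 531 and 297 FPKM. All 3 mutant mice thus had a value, but the single WT value lay inside their range. With the exact 0s treated as missing, the fit rested on 1 WT mouse and 3 HrasG12V mice and gave a log2 fold change of -0.66. With a single WT value the WT group had no spread of its own, so no p-value is given. Fitted with the 0s as values, the sign was opposite, and no fold is given for it here.

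Myh4 (chr11:67238029-67260446, 6016 bases) encodes the heavy chain of type 2B fibers, the most glycolytic and fastest ones, which make up much of the mouse gastrocnemius. It was listed at 0 in all 6 mice. Its neighbour on the other side from Myh1, the perinatal heavy chain gene Myh8, was listed at 2.35 to 3.55 FPKM in the 6 mice.

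The make-up of the adult heavy chains as listed followed these 0s. Of the summed FPKM of Myh1, Myh2, Myh4 and the slow chain gene Myh7, Myh2 took 84.0% and 81.7% in the WT mice in which Myh1 was listed at 0, and 11.5% in WT mouse 2281. In HrasG12V mice Myh2 took 31.5%, 23.4% and 30.9% and Myh1 took 58.7%, 64.5% and 37.9%. The WT mice thus differed among themselves in whether Myh1 had a value, and every HrasG12V mouse had one. Where both genes had one, the ratio of Myh1 to Myh2 was 7.72 in WT mouse 2281 and 1.86, 2.75 and 1.22 in the HrasG12V mice. Adding the embryonic and perinatal chains Myh3 and Myh8 changed little, since each amounted to less than 1% of the sum in every mouse (at most 0.892% for Myh3). No test was made, because of the values at 0.

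**Figure D2:**
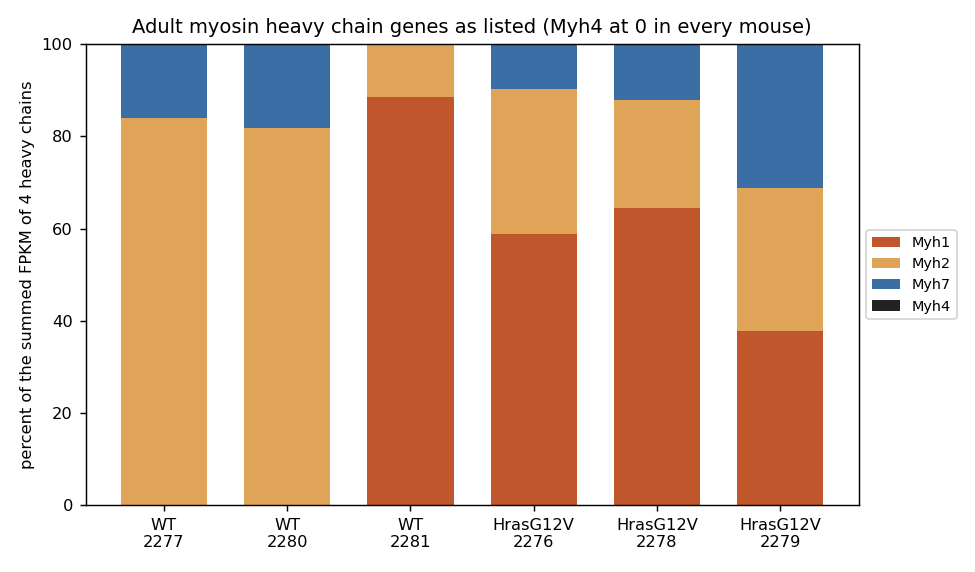
Percentage of the summed FPKM of Myh1, Myh2, Myh4 and Myh7 (vertical axis) taken by each gene in each mouse, as listed. Myh1 is absent from the bars of WT mice 2277 and 2280 and takes 88.5% in WT mouse 2281, where Myh7 takes 0.0434%, and Myh4 is at 0 in every mouse.

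Of the light chains, Mylpf (chr7:127208890-127214298, 766 bases) encodes the fast regulatory light chain. Its values were 15858, 17485 and 22330.2 FPKM in WT mice and 36114, 14985 and 10759.8 FPKM in HrasG12V mice. Mouse 2276 lay far above and the other 2 mutant mice below every WT mouse. The means were 18558 ± 3367 and 20619.8 ± 13584 FPKM (SD, n = 3), and the log2 fold change of Mylpf was -0.03 (95% interval -1.69 to 1.63, limma, adjusted p = 0.994). Myl1 (chr1:66924295-66945404, minus strand, 1082 bases), the gene of the fast essential light chains, was listed at 15428, 13272 and 19667 FPKM in the WT group and at 27204, 11656 and 9765 FPKM in the HrasG12V group. The pattern was that of Mylpf, with 1 mutant mouse above and 2 below all WT mice. Myl1 had a log2 fold change of -0.13 (95% interval -1.68 to 1.43, limma, adjusted p = 0.971).

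Of the troponin subunits, Tnni2 and Tnnc2 showed the same arrangement of mice. Tnni2 (chr7:142441808-142444410, 768 bases), the inhibitory subunit, was at 6548, 6376 and 7487 FPKM in the WT group and at 17112, 6143 and 5442 FPKM in HrasG12V mice. Tnnc2 (chr2:164777161-164779967, minus strand, 700 bases), the calcium-binding subunit, was at 9369, 9183 and 11122 FPKM in the WT group and at 20921, 7388 and 5787 FPKM in HrasG12V mice. In both, the WT values lay close together and the mutant values on either side of them. The log2 fold change was 0.29 for Tnni2 (95% interval -1.16 to 1.75, limma, adjusted p = 0.913) and -0.03 for Tnnc2 (95% interval -1.59 to 1.53, limma, adjusted p = 0.993). The gene Ube2c overlaps Tnnc2 on the opposite strand. It was listed at 5.37 FPKM or less in every mouse.

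Tnnt3 (chr7:142498836-142516009, 1079 bases), the subunit that ties troponin to tropomyosin, was at 8958, 8444 and 10419 FPKM in WT mice. In HrasG12V mice it was listed at 0 in mouse 2276 and at 8591 and 6893 FPKM in mice 2278 and 2279. This is the mouse with the highest values of the other troponin subunits. Of its neighbours, Prr33, which overlaps Tnnt3 on the opposite strand, and Lsp1, which ends 3969 bases before it, were also listed at 0 in mouse 2276, against 77.9 to 122 FPKM and 13.6 to 31.9 FPKM in the other 5 mice. Mrpl23, which begins 16677 bases beyond Tnnt3, was at 224 FPKM in mouse 2276 and at 63.6 to 108 FPKM in the others. With the 0 treated as missing, which left 2 HrasG12V mice, the log2 fold change of Tnnt3 was -0.26 (SE 0.74, adjusted p = 0.939, limma).

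Actn3 (chr19:4861216-4877909, minus strand, 2887 bases) was at 2427, 2602 and 3322 FPKM in the WT group and at 3264, 1566 and 2515 FPKM in HrasG12V mice. It was the one member with a value in every mouse whose highest value was in a WT mouse, and its groups overlapped as well. The means were 2784 ± 474 and 2448 ± 851 FPKM (SD, n = 3). The log2 fold change of Actn3, -0.24, was the lowest of the 7 and had the narrowest interval, -1.28 to 0.81 (limma, adjusted p = 0.897).

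Pvalb (chr15:78191114-78206400, minus strand, 977 bases) was at 11342, 11651 and 20286.6 FPKM in the WT group and at 32969, 13456 and 10828 FPKM in HrasG12V mice. The WT mouse with the high value was 2281, and again mouse 2276 was above all others. Means of 14427 ± 5077 and 19084 ± 12096 FPKM (SD, n = 3) gave a log2 fold change of Pvalb of 0.28 (95% interval -1.36 to 1.92, limma, adjusted p = 0.930).

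FPKM is scaled per length, so levels were set side by side between genes, as a description. The trend over transcript length in mouse 2276, given below, limits this. For Myh2 the reads shared among heavy chain genes limit it as well. By the mean over 6 mice the 7 members were ordered Mylpf, Pvalb, Myl1, Tnnc2, Tnni2, Actn3 and Myh2, at 19589, 16755, 16165, 10628, 8185, 2616 and 354 FPKM. Within libraries, Tnnc2 was above Tnni2, Tnni2 above Actn3 and Actn3 above Myh2 in 6 of 6 mice, as was Myl1 above Tnnc2. The top of the order was not settled: Mylpf was above Pvalb in 5 mice and Pvalb above Myl1 in 4, and the ranges of neighbours overlapped from Mylpf down to Tnni2. The 7 members together held 11.7%, 12.4% and 15.4% of the summed FPKM in WT mice and 16.98%, 12.9% and 10.98% in HrasG12V mice. Means of 13.2% ± 1.96 and 13.6% ± 3.07 (SD, n = 3) did not differ beyond this spread (exact permutation test, two-sided, p = 0.8, where 3 against 3 cannot go below 0.1). In every library 5 or 6 of the 10 most abundant symbols were members.

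The mutant mice were more spread than the WT mice in 6 of the 7 members, Myh2 being the exception (SD of log2 values 1.16 among WT and 0.91 among HrasG12V mice). The median SD of log2(FPKM + 0.1) over the 7 members was 0.25 among WT mice and 0.90 among HrasG12V mice, and over all genes tested it was 0.13 and 0.42. Mouse 2276 had the highest value of 6 of the 7 members, and mouse 2279 the lowest of 5. Relative to the mean of the other 5 mice, mouse 2276 was 2.67-fold higher for Tnni2, 2.44-fold for Tnnc2 and Pvalb, 2.22-fold for Mylpf, 2.14-fold for Myh2, 1.95-fold for Myl1 and 1.31-fold for Actn3. The library of this mouse stood apart in other ways. Its summed FPKM was 814013 against 413020 to 547122 in the other 5, and its genes followed the length of their transcripts. Across 13259 genes with a known length, the Spearman correlation between length and deviation from the other mice was -0.49 in mouse 2276 and 0.18 to 0.30 in the others, where genes are not independent replicates. In mouse 2276, genes under 1000 bases lay 0.84 above (log2, median) and genes of 6000 bases or more lay 0.58 below the other mice. Most members are short, at 700 to 1082 bases in 5 of the 7, but Myh2, at 6083 bases, was by this measure as high in mouse 2276 as they were. For Myh2, though, the mean of the other 5 mice included 117 FPKM in WT mouse 2281. The 636 FPKM of mouse 2276 was not far above the 508 FPKM of WT mouse 2277.

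**Figure D3:**
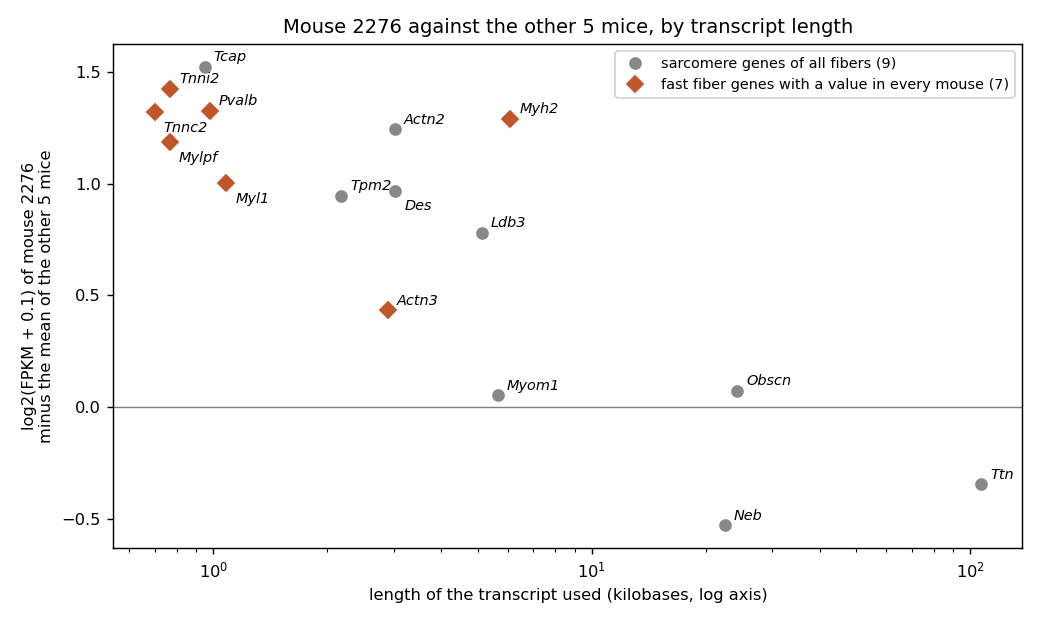
Difference in log2(FPKM + 0.1) between mouse 2276 and the mean of the other 5 mice (vertical axis) against transcript length in kilobases (horizontal log axis), 1 point per gene, for 7 fast fiber genes and 9 sarcomere genes common to all fibers. Short genes such as Tnni2 and Tcap lie near 1.4 and 1.5, Actn3 at 0.43, the long Neb at -0.53, and Myh2, of 6083 bases, at 1.29.

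Without mouse 2276 all 7 members had log2 fold changes below 0, from -0.59 for Tnnc2 to -0.20 for Pvalb. Of the 7, 1 passed the unadjusted p of 0.05, against 29.8% of all genes in the same fit. This was Tnnc2 (95% interval -1.11 to -0.07, unadjusted p = 0.0328 and adjusted p = 0.133, limma), and Myl1 was at -0.58 (unadjusted p = 0.0642). Leaving the mouse out is an alternative and not the design. When WT mouse 2281 was left out as well, also chosen after seeing the data, 1 of the 7 passed, against 22.2% of all genes, and it was Myh2, at -1.10 (limma, adjusted p = 0.0886). With each library's trend over transcript length removed instead, an alternative chosen after seeing the data, the 7 log2 fold changes ran from -0.25 for Myl1 to 0.26 for Myh2, their intervals were narrower except for Myh2, and none passed an unadjusted p of 0.05. Under this setting the interval of Tnni2 was -0.46 to 0.75 and that of Mylpf -0.90 to 0.55. What part the length trend or the mouse itself had in the high values of mouse 2276 was not tested.

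**Figure D4:**
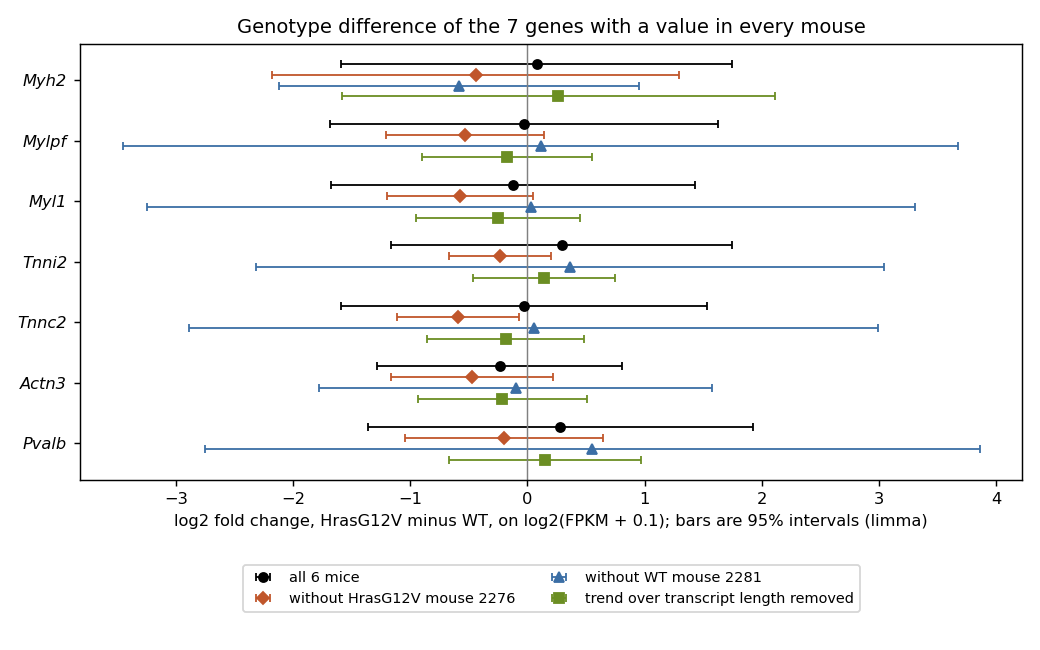
Log2 fold change of each of 7 fast fiber genes (HrasG12V minus WT, horizontal axis) with 95% intervals from limma, for all 6 mice, without mouse 2276, without mouse 2281 and with the trend over transcript length removed. All intervals include 0 except that of Tnnc2 without mouse 2276, -1.11 to -0.07.

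Ratios between members within a library do not depend on how libraries were scaled. The inhibitory to calcium-binding troponin ratio, Tnni2 to Tnnc2, was 0.699, 0.694 and 0.673 in WT mice and 0.818, 0.831 and 0.940 in HrasG12V mice, so every mutant mouse was above every WT mouse. Myl1 to Tnni2 was 2.36, 2.08 and 2.63 in WT mice and 1.59, 1.90 and 1.79 in HrasG12V mice, again without overlap. Myl1 to Pvalb was 1.36, 1.14 and 0.969 in WT mice against 0.825, 0.866 and 0.902 in HrasG12V mice. These were 3 of 21 pairs of the 7 members, and they fall among the 15 pairs of the 6 members above 1000 FPKM. Among 1225 pairs of the 50 genes with a mean of at least 1000 FPKM, members included, 14.7% did not overlap, so 3 such pairs are a number near the background and no test was made. The pairs were examined after the members' values had been seen.

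Across the 6 mice the members' log2 values correlated with each other at Pearson r from 0.13 to 0.99 with a median of 0.68 over 21 pairs. The highest was Mylpf with Tnnc2 and the lowest Myh2 with Pvalb. These are descriptions of 6 libraries that share 1 library far from the rest. The 5 genes outside the members whose log2 values followed the mean of the 7 most closely were Mrpl54, 2410004B18Rik, Mrps10, Dctn3 and Smdt1, with r of 0.9997 for the first and 0.9991 for the last. Mrpl54, a protein of the mitochondrial ribosome, was at 61.5, 59.6 and 64.1 FPKM in the WT group and at 144.6, 44.4 and 41.8 FPKM in HrasG12V mice, high in mouse 2276 like the members. Of 7678 genes ranked, 1485 had an r of at least 0.9, so the pattern of the members was common.

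The slow fiber isoforms separated the mice in another way. The fast regulatory light chain Mylpf exceeded its slow counterpart Myl2 39.9-fold and 42.7-fold in WT mice 2277 and 2280 and 6520-fold in WT mouse 2281. In HrasG12V mice the ratio was 33.7, 56.4 and 16.2. WT mouse 2281 was thus far from all others while the remaining WT mice lay among the mutants. In that mouse Myl2 was listed at 3.42 FPKM, against 266 to 1073 FPKM in the other 5, and Myh7 at 0.443 FPKM, against 95.2 to 245 FPKM. The same mouse held the lowest value of Myh2 and the highest of Actn3.

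WT mouse 2281 was the highest in the other isoform pairs as well. Myl1 to Myl3 was 77.5, 63.0 and 10859 in WT mice and 50.3, 78.5 and 26.6 in HrasG12V mice. Tnni2 to Tnni1 was 57.2, 56.1 and 2872 in WT mice and 53.2, 67.1 and 24.7 in HrasG12V mice. Tnnc2 to Tnnc1, the pair of calcium-binding subunits, was 65.4, 64.0 and 3064 in WT mice and 40.5, 46.0 and 17.9 in HrasG12V mice, and was the one ratio of the 4 tested whose genotypes did not overlap. Tnnt3 to Tnnt1 was 70.6, 60.7 and 2258 in WT mice and 54.9 and 30.7 in mice 2278 and 2279, with no ratio for mouse 2276. In log2, the mean ratio in HrasG12V mice was lower by 2.24 to 2.99 in the 4 ratios with all values. None passed the exact permutation test (two-sided p = 0.4, 0.3, 0.4 and 0.1 in the order above without Tnnt3, each 0.4 after adjustment over 4 ratios, where 0.1 is the smallest p possible). The size of these differences rested on WT mouse 2281. Without it they were -0.40, -0.57, -0.35 and -1.01, and the Tnnc2 to Tnnc1 ratio was still lower in each HrasG12V mouse than in either remaining WT mouse.

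**Figure D5:**
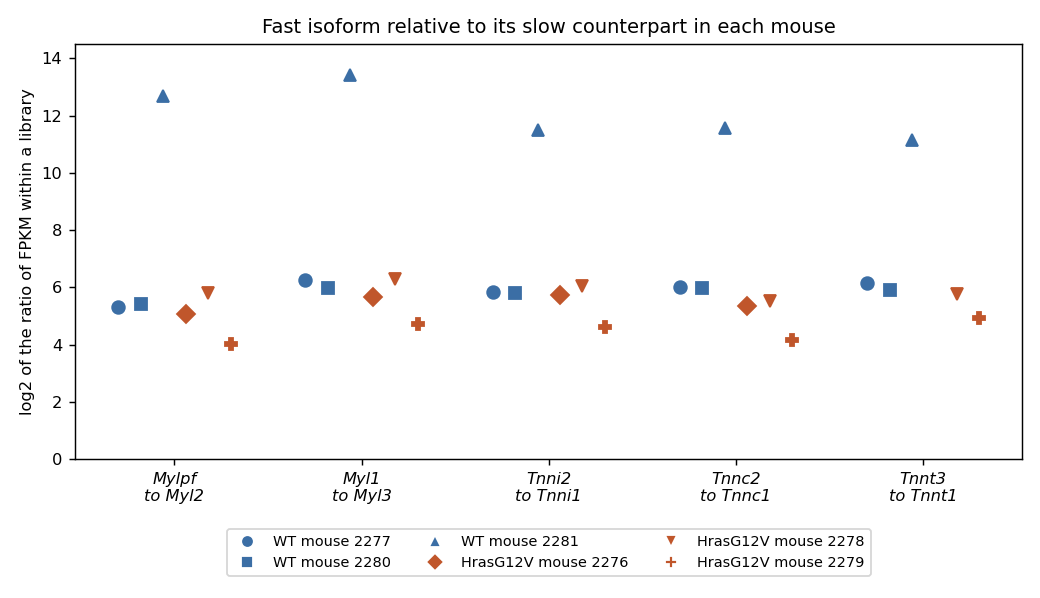
Log2 ratio of the FPKM of a fast gene to its slow counterpart within a library (vertical axis) for 5 isoform pairs, 1 point per mouse, without mouse 2276 for Tnnt3. WT mouse 2281 lies at 11.1 to 13.4 in all 5 pairs, and the other mice lie between 4.0 and 6.3.

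The slow list held 12 genes. Of these 12, 2 passed the unadjusted p and rose in HrasG12V mice, against 10.2% of all genes, and none fell. The median log2 fold change was 2.10 beside -0.03 for all genes. The 2 were Myl6b, a light chain of slow and embryonic muscle, at 17.1, 27.3 and 5.03 FPKM against 49.6, 33.5 and 49.1 FPKM, and the slow tropomyosin gene Tpm3, at 79.0, 89.8 and 20.3 FPKM against 188, 105 and 184 FPKM. Myh7 had the highest log2 fold change of the list, 3.30, but did not pass (limma, unadjusted p = 0.140), and Pln, the inhibitor of the slow calcium pump, had the lowest, -0.51. Without mouse 2281 the median fell to 0.65 and 1 gene of the list rose, and without mouse 2276, 2278 or 2279 no gene rose (0 in each fit, with 1 falling without mouse 2279). Of all 13359 genes, 606 passed without mouse 2281, 3979 without mouse 2276, 1294 without mouse 2278 and 1537 without mouse 2279. No member of the list passed an adjusted p.

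Among 15 other genes of fast fibers, 13 had values above 0 in every mouse. Of these 13, 1 passed the unadjusted p, falling in HrasG12V mice, against 10.2% of all genes. This gene, Mylk4, encodes a kinase of the myosin light chain kinase family. Its FPKM was 81.0, 95.8 and 143.9 in WT mice and 17.2, 24.6 and 22.3 in HrasG12V mice, each mutant value below each WT value. The log2 fold change of Mylk4 was -2.29 (SE 0.28, unadjusted p = 9.9e-05, adjusted p = 0.132, limma), between -2.47 and -2.05 with any 1 mouse left out. The median of the list was -0.40, and its highest value was 0.28 for Smtnl1. Without mouse 2276, 6 of the 13 passed, all lower in HrasG12V mice, against the 29.8% of all genes given above, and without mouse 2279, 2 did, against 11.5% of all genes. Ckm, the muscle creatine kinase gene, was listed at 0 in 5 mice and at 7165 FPKM in mouse 2278, together with A930016O22Rik, which overlaps it and was at 1189 FPKM in that mouse and at 0 elsewhere. Atp2a1, the fast calcium pump gene, was listed at 0 in all 6 mice.

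Of 20 regulators of fiber type, 2 passed the unadjusted p and both fell in HrasG12V mice, a share near the 10.2% of all genes. Ppargc1a, the coactivator that promotes mitochondrial and slow fiber genes, was at 9.19, 8.96 and 10.1 FPKM in WT mice against 5.48, 5.22 and 6.05 FPKM in HrasG12V mice (log2 fold change -0.74, SE 0.14, unadjusted p = 0.00127, limma). Ppargc1a passed the unadjusted p whichever 1 mouse was left out, and it did not pass an adjusted p. Without mouse 2276, 4 regulators fell and 1 rose, against 29.8% of all genes, and without mouse 2279, 6 fell, against 11.5% of all genes. The median of the list was -0.36, and Prox1, a factor of slow fibers, had its highest value, 0.18. Of 5 developmental isoforms, 1 passed the unadjusted p, against 10.2% of all genes. This was Myl4, the embryonic light chain gene, which rose from 4.15, 5.22 and 5.27 FPKM to 13.4, 7.58 and 7.89 FPKM (log2 fold change 0.92, unadjusted p = 0.00902, adjusted p = 0.390, limma). Without mouse 2279, 3 of the 5 passed, all higher in HrasG12V mice, against 11.5% of all genes. With libraries centred on sarcomere genes, 1 passed, lower in HrasG12V mice, where 363 of all 13359 genes passed. Actc1 was the lowest at -1.10, with 245 FPKM in mouse 2279 and 1836 to 4343 FPKM in the others. With 1 mouse left out it ran from -1.95 to 0.12.

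Sarcomere genes common to all fibers were abundant in every library except Acta1, the skeletal actin gene, which was listed at 0 in all 6 mice. Of the 9 others, 1 passed the unadjusted p, a share near the 10.2% of all genes. This was Neb, at 367, 315 and 350 FPKM in the WT group and 206, 217 and 263 FPKM in the HrasG12V group (log2 fold change -0.59, unadjusted p = 0.0434, limma), and it passed in 2 of the 6 fits that left out 1 mouse. Without mouse 2276, 4 of the 9 passed, all lower in HrasG12V mice, against 29.8% of all genes, and none passed without mouse 2277, 2278, 2280 or 2281. The median of the 9 was -0.35, and Tcap was highest at 0.25.

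Markers of other cells differed between mice that also differed in the members. The 4 B cell markers summed to 69.4 and 54.7 FPKM in HrasG12V mice 2278 and 2279 and to 0.521 to 1.30 FPKM in the other 4 mice, with Ms4a1 at 0 in mouse 2276. The 5 T cell markers summed to 23.9 and 32.0 FPKM in the same 2 mice and to 0.701 to 0.942 FPKM in the others, with Cd8a at 0 in mouse 2276. The 5 adipocyte markers summed to 6.68 to 34.8 FPKM in WT mice, lowest in mouse 2281, and to 22.7 to 107 FPKM in HrasG12V mice, again highest in 2278 and 2279. Past the unadjusted p, beside 10.2% of all genes, were 3 of 3 tested B cell, 3 of 4 tested T cell and 1 of 5 adipocyte markers, higher in HrasG12V mice, and 1 of 4 endothelial markers (Cdh5) and 1 of 5 tendon and fibroblast markers (Tnmd), lower in HrasG12V mice. These counts depended on single mice, apart from Cdh5 and the B cell marker Cd79b, which each passed whichever mouse was left out. Leaving out any 1 mouse other than 2276 reduced the B cell count to 1 and the T cell count to 0, or to 1 without mouse 2277. In these fits 606 to 1537 of all 13359 genes passed. Without mouse 2276, where 29.8% of all genes passed, the T cell count was 4 and the adipocyte count 3. The adipocyte count was 0 without mouse 2278 or 2279. Schwann cell markers past p were 0 of 4 with all mice and 4 without mouse 2276, higher in HrasG12V mice. Red blood cell markers were 0 of 4 with all mice and 3 without mouse 2279, again higher. The tendon and fibroblast count was 3 without mouse 2278 and 0 without mouse 2279. Summed Schwann cell markers ran from 78.1 to 246 FPKM in WT and from 113 to 419 FPKM in HrasG12V mice, red blood cell markers from 243 to 276 FPKM and from 221 to 763 FPKM, and tendon and fibroblast markers from 1406 to 2967 FPKM and from 648 to 2495 FPKM. Endothelial markers ran from 125 to 151 FPKM in WT and from 94.5 to 111 FPKM in HrasG12V mice. Mice 2278 and 2279, which carried the lymphocyte markers, were the mutant mice in which Mylpf, Myl1, Tnni2 and Tnnc2 lay below all WT mice. The part of other cells in the members' values was not tested.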

How the data were processed

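Gastrocnemius RNAseq values of 3 HrasG12V and 3 WT mice, 1 library per mouse, were taken as deposited. The authors had prepared stranded mRNA libraries, mapped single-end reads of 50 bases with TopHat to GRCm38 (mm10, per the processing notes) and used Cufflinks and Cuffnorm to give FPKM per gene symbol, scaled between libraries. Versions of these tools, and the annotation, were not given in the sources used here. Sums of FPKM are not depths. Whether FPKM below 0.1 were multiples of 1 read was checked from their ratios between libraries, whose fullest interval held 0.798% to 4.83% of genes, so no counts were recovered. The depth behind each value is unknown, and precision is known only from the spread between mice.

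The 13359 genes averaging 0.5 FPKM or more were compared on log2(FPKM + 0.1) in limma 3.58.1 under R 4.3.3 (moderated variances with an abundance trend, two-sided, Benjamini-Hochberg adjustment over all genes tested, no covariate). The fit was tested on simulated data. The scale understates changes of low genes. A member listed at 0 in any library was described and not counted among members tested. Within-library ratios and shares were compared with exact permutation tests (scipy 1.17.1). The members, gene lists and tests were chosen with earlier results of these data known. Named genes were all members, then from each list genes past the unadjusted p of 0.05 without overlap (up to 4) and the highest and lowest log2 fold change, genes at 0 in 1 library and above 100 FPKM in another, and the 5 genes most like the members. Other markers, neighbouring genes, Myl2 and the other slow partners of the ratios, and genes at 0 everywhere were named beside them. Alternatives were other pseudocounts, filters and scalings, no moderation, array weights, 0 as missing and leaving out each mouse. Removal of the length trend and leaving out mice 2276 and 2281 together were added after seeing the data. Positions and transcript lengths came from GENCODE vM21 (99.3% of genes tested had a length). No sex, litter or batch is in the labels, so none was modelled. Python 3.11.15, pandas 2.3.3 and numpy 2.4.6 were used. The result of 1 listed gene is not reported here.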

Additional observations from a re-analysis of the deposited data

How the results depend on the processing

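No member passed an unadjusted p of 0.05 under pseudocounts of 1 or 0.01, either filter, quantile normalization, centring on medians or on sarcomere genes, rescaling to the same total, no moderation, array weights, 0 as missing or removal of the length trend. Leaving out 1 mouse gave 0 to 1 members, the 1 being Tnnc2 without mouse 2276, and leaving out mice 2276 and 2281 together gave 1, Myh2 at -1.10 (unadjusted p = 0.00538, limma, where 22.2% of all genes passed). The count of all genes past p, 1358, was 712 with a mean FPKM of at least 5, 712 at the same total, 363 with sarcomere centring, 3042 with array weights, 2961 without both mice, and 606 to 3979 with 1 mouse left out, highest without mouse 2276 and lowest without mouse 2281. Directions of the small member differences were not stable. Tnnc2 was at 0.017 and Actn3 at 0.0073 under quantile normalization, Myh2 at -0.63, Tnni2 at -0.11 and Pvalb at -0.0065 with array weights, and Tnni2 at -0.16 without both mice. With 1 mouse left out, log2 fold changes ran from -0.58 to 0.47 for Myh2, -0.53 to 0.34 for Mylpf, -0.58 to 0.16 for Myl1, -0.23 to 0.60 for Tnni2, -0.59 to 0.34 for Tnnc2, -0.47 to 0.055 for Actn3 and -0.20 to 0.60 for Pvalb. The difference in the members' share of the summed FPKM, 0.433 percentage points, ran from -1.25 (without mouse 2276) to 1.75. The fast to slow ratios stayed lower in HrasG12V mice under every alternative run, from -4.28 (Myl1 to Myl3 without mouse 2280) to -0.35 (Tnni2 to Tnni1 without mouse 2281), although the exact permutation test of 2 against 3 cannot go below p = 0.2. Of the 12 slow genes, 2 passed with all mice, 8 with sarcomere centring and 0 without moderation, without a filter or with array weights. Of the 20 regulators, 5 passed with array weights and 0 with sarcomere centring. Of all 13359 genes, 363 passed with sarcomere centring, 3042 with array weights and 1317 without moderation. Causes were not tested. No paired analysis was possible, because the labels do not give which WT and HrasG12V mice were littermates of each other. The 3 mice per genotype limit what can be seen, since the intervals of 6 of the 7 members span changes of more than 2-fold either way.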
